A study of Mus musculus with 17 samples.

Results

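*Lpl*, the gene of lipoprotein lipase, was followed together with 8 other genes of lipoprotein handling through 17 libraries of cultured mouse astrocytes. The 9 genes were taken by symbol from the 56691 genes of the count table. *Lpl* was selected on measured values, since its level with FGF2 against PBS in these libraries was already known, and the other 8 genes (*Apoe*, *Clu*, *Apod*, *Lcat*, *Abca1*, *Abcg1*, *Lrp1* and *Vldlr*) were added for their roles in the same pathway with earlier results of these data in view. The astrocytes came from C57BL/6 mouse brain at postnatal day 2 without olfactory bulbs or cerebellum, were freed of CD45+ and O4+ cells, were selected with an antibody against HepaCAM and were kept in serum-free medium with heparin-binding EGF-like growth factor. In the first experiment, SAG, a small molecule that activates the Hedgehog pathway through Smoothened, was given at 500 ng/ml from day in vitro 3 for 3 days (n = 3), with the solvent DMSO as its vehicle (n = 3). In the second experiment, FGF2 (n = 4) or FGF10 (n = 3) was given at 50 ng/ml from day in vitro 2 for 7 days, with PBS as the vehicle (n = 4). The 2 experiments differed in ligand, vehicle, starting day and duration, and the FGF2 and FGF10 comparisons share the 4 PBS libraries. The study's methods call the replicates biological, and whether replicates of different groups came from the same preparation of cells was not stated. The study's text counts fewer FGF2 replicates than the labels, without saying which library is the additional one, and all labelled FGF2 libraries were used. All cells grew in the same growth factor medium without neurons, which limits the cultures as a model of astrocytes in the brain.

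Astrocytes are the main source of lipoproteins in the brain. They load cholesterol and phospholipid onto apolipoprotein E and clusterin through the transporters ABCA1 and ABCG1, LCAT esterifies the cholesterol on these particles, and receptors of the LDL receptor family, LRP1 and the VLDL receptor among them, take the particles up. Lipoprotein lipase releases fatty acids from lipoprotein triglyceride and also bridges particles to the cell surface. In the brain it is best known from oligodendrocyte precursors, microglia and some neurons.

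Libraries held 17481727 to 68342287 counts of 3′ end tags, 32001914 to 48774253 in the 7 vehicle libraries and 17481727 to 68342287 in the 10 treated libraries. Levels are given as CPM (counts scaled to library size) after TMM normalization over the 17 libraries. A 3′ tag protocol yields about 1 tag per transcript whatever its length, so CPM of different genes can be set side by side. Astrocyte markers were abundant in every library, with a summed level of 15 markers between 4986 and 7681 CPM, led by *Glul* at a mean of 1264 CPM. Of 18 markers of microglia and macrophages, 7 were at 0 in every library and the sum was 2.64 to 79.4 CPM. Of 12 endothelial and mural markers, 3 were at 0 throughout (*Cdh5*, *Cldn5* and *Kcnj8*) and the sum stayed at or below 74.4 CPM. The list of fibroblast and meningeal markers summed to 17.2 to 68.9 CPM. It was led by *Pdgfra* at a mean of 29.9 CPM, followed by *Ogn* at 3.38 CPM. *Pdgfra* was not part of the oligodendrocyte lineage list. Markers of the oligodendrocyte lineage summed to 2196 to 4520 CPM, neuronal markers to 130 to 515 CPM and ependymal markers to 88.4 to 638 CPM, and these 3 sums differed between groups or replicates, as given beside the results they touch. In bulk libraries fewer cells of a type and less RNA per cell cannot be told apart.

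*Lpl* (GRCm38 chr8:68880491-68907448, plus strand) was nearly silent in vehicle cultures and present in each treated culture. It had 0 counts in all 3 DMSO libraries and 3, 1, 0 and 0 counts in PBS replicates 1 to 4. With SAG it had 393, 876 and 190 counts, with FGF2 91, 320, 581 and 426 counts, and with FGF10 138, 261 and 218 counts. No treated library overlapped with any vehicle library.

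On the CPM scale the SAG libraries held 11.2, 13.0 and 6.11 CPM of *Lpl*, a mean of 10.1 ± 3.59 (SD, n = 3). The FGF2 libraries held 1.68, 18.3, 12.3 and 10.3 CPM, a mean of 10.6 ± 6.86 (SD, n = 4). The FGF10 libraries held 5.32, 5.38 and 5.69 CPM, a mean of 5.46 ± 0.200 (SD, n = 3). The spread was thus widest with FGF2, where replicate 1, the deepest library of that group with 55550088 counts, had the lowest *Lpl*, and narrowest with FGF10. In the order of mean levels, FGF2 and SAG overlapped, SAG lay above FGF10 without overlap, FGF10 above PBS without overlap, and PBS and DMSO overlapped near 0.

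**Figure D1:**
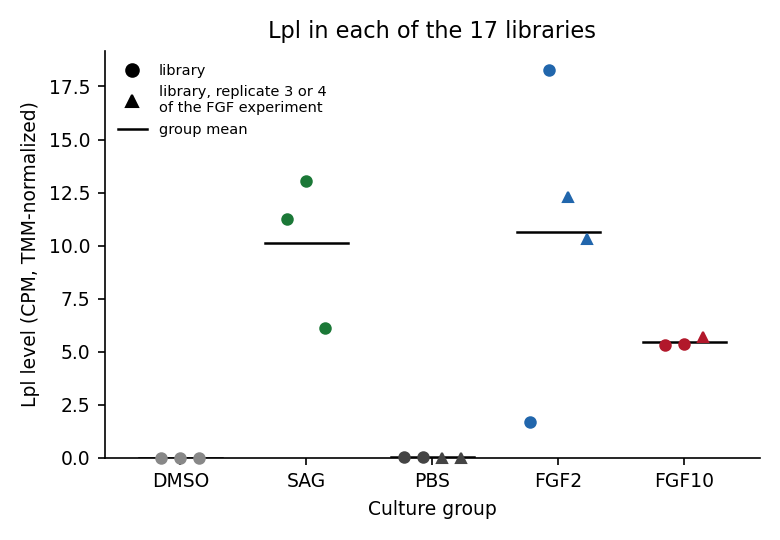
*Lpl* level in CPM (vertical axis, from 0) in each library of the 5 culture groups (horizontal axis). Points are libraries, triangles are replicates 3 and 4 of the FGF experiment, and bars are group means. The 7 DMSO and PBS libraries sit at or near 0, and the 10 treated libraries sit between 1.68 and 18.3 CPM.

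Among the 22606 genes with any count, *Lpl* was the 1 gene with at most 3 counts in each of the 7 vehicle libraries and more than 3 in each of the 10 treated libraries, which is 0.00442% of genes, and 0 genes showed the reverse. This description holds the values that chose *Lpl* and carries no test. The count stayed at 1 gene with a limit of 10 counts in place of 3 and when any 1 library was left out, and it was 0 with a limit of 0 counts, since 2 PBS libraries hold a few *Lpl* tags. By CPM alone, 1 gene had all treated libraries above all vehicle libraries, *Lpl*, and 1 gene had them all below, *Atl3* (an endoplasmic reticulum membrane GTPase, named after its values were seen), with 17 to 48.2 CPM in vehicle and 2.99 to 15.1 CPM in treated libraries.

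*Lpl* with SAG was at least 147-fold higher than with DMSO, taking 3 counts in each DMSO library as the upper limit that a count of 0 allows (0.0618 to 0.0791 CPM). The bound was at least 126-fold when any 1 SAG library was left out and at least 140-fold when any 1 DMSO library was. It covers counting error only: among genes at 5 to 10 CPM elsewhere, a level close to the 6.11 to 13.0 CPM of *Lpl* with SAG, 15.9%, 8.09% and 26.7% were at 0 in DMSO replicates 1 to 3. FGF2 against PBS gave a ratio of 335 on the pooled counts, with a 95% counting interval of 131 to 1231, and 281 to 474 when 1 FGF2 library was left out. FGF10 against PBS gave a ratio of 207, with a counting interval of 80.5 to 763. The intervals rest on the 4 *Lpl* tags of PBS and cover counting error only. PBS replicate 1 held 3 of these tags, and without it the ratio was 907 (162 to 35836) for FGF2 and 561 (100.2 to 22178) for FGF10. Without any 1 of the other PBS libraries it was 257 to 342 and 159 to 212. These ratios hold the values that chose *Lpl* or share its PBS libraries, and leaving out PBS libraries was added after seeing the data. A pattern of at most 3 counts in each vehicle library and more in each treated library was found in 0.191% of genes tested for SAG against DMSO, 0.0471% for FGF2 against PBS and 0.195% for FGF10 against PBS.

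The SAG comparison shares no library with the one that chose *Lpl*, so it was tested. In edgeR's quasi-likelihood test the adjusted p of *Lpl* was 0.500 (unadjusted 0.00659) at a fitted log2 fold change of 11.82 ± 3.4 (SE, n = 3 and 3), a value that depends on the prior count because DMSO is at 0. In DESeq2's Wald test the adjusted p was 1.96e-04. Over the other settings and libraries left out the adjusted p of *Lpl* ran from 1.96e-04 to 0.955. *Lpl* was higher in 3 of 3 SAG libraries, and the exact two-sided permutation test gave its smallest possible p for 3 against 3, 0.1. For FGF2 and FGF10 against PBS, and for FGF2 against FGF10, *Lpl* is described by its levels alone.

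The markers of 2 other cell types that express *Lpl* were set beside it. Oligodendrocyte lineage markers summed to 2259 to 2803 CPM with DMSO and 4017 to 4116 CPM with SAG, without overlap. This sum was led by *Olig2* and *Olig1*, at means of 1372 and 1115 CPM over all libraries. Of the 14 markers, 9 passed 3 counts in every DMSO library and 5 in every SAG library. In the FGF experiment the same sum was 2196, 2258, 3828 and 4156 CPM in PBS replicates 1 to 4, where *Lpl* had 3, 1, 0 and 0 counts. It was 2364, 2497, 3850 and 4520 CPM in FGF2 replicates 1 to 4, beside 91, 320, 581 and 426 counts of *Lpl*, and 2472, 2208 and 3714 CPM in the FGF10 libraries, beside 138, 261 and 218 counts. The sum thus differed between DMSO and SAG together with *Lpl*, and in the FGF experiment it overlapped between PBS and each ligand. Its part in the level of *Lpl* was not tested. Microglial markers summed to 79.4, 22.2 and 2.7 CPM in SAG replicates 1 to 3, beside *Lpl* at 11.2, 13.0 and 6.11 CPM, and the microglial surface genes *Cx3cr1* and *P2ry12* reached at most 0.465 and 1.29 CPM in any library.

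The 5 genes closest to *Lpl* in pattern were in none of the lipid lists. Among 15457 genes compared on log2 CPM, the highest Pearson correlations were those of *3000002C10Rik* (r = 0.757), *Morn3* (r = 0.733), *Tmem250-ps* (r = 0.731), *Apc* (r = 0.724) and *Abcf3* (r = 0.717), given as a description because vehicle and treated libraries form separate groups. Spearman's rho for them ran from 0.635 to 0.705. None of these was near 0 in each vehicle library and present in each treated one: *Morn3* had no counts in vehicle libraries but passed 3 counts in 7 of 10 treated libraries, and *Apc*, a scaffold of the β-catenin destruction complex, ranged from 109 to 149 CPM in vehicle and 134 to 202 CPM in treated libraries.

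Partners of lipoprotein lipase were also measured. *Gpihbp1*, which anchors the enzyme on capillary endothelium, had 0 counts in all 17 libraries. *Lmf1* and *Sel1l*, which serve folding and export of the enzyme from the endoplasmic reticulum, were present in every group at mean levels of 11.9 to 17.4 CPM and 56.5 to 100.4 CPM. With SAG their log2 fold changes were 0.16 ± 1.05 and 0.26 ± 0.41 (SE), both at an adjusted p of 1 in edgeR. *Angptl4*, a secreted inhibitor of the enzyme, had a mean of 12.6 CPM with DMSO and 5.18 CPM with SAG, and ranged from 0 to 50.7 CPM in the FGF experiment, where it followed the replicate number, described further on.

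*Apoe* (chr7:19696109-19699188, minus strand) encodes the main apolipoprotein of astrocyte particles and was the most abundant of the 9 genes, at the 99.9th percentile of mean level among genes with counts. It was at 4071, 4793 and 5660 CPM with DMSO and at 3208, 3831 and 3796 CPM with SAG. Each SAG library lay below each DMSO library, with a log2 fold change of -0.40 ± 0.15 (SE) and an edgeR adjusted p of 0.680 (unadjusted 0.0204). In the FGF experiment the groups overlapped, with 5724, 6785, 4422 and 3745 CPM in PBS, 7202, 6696, 2057 and 3230 CPM in FGF2 and 6044, 6874 and 4385 CPM in FGF10. The high values there were those of replicates 1 and 2.

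*Clu* (chr14:65968483-65981547, plus strand) encodes clusterin, the second abundant astrocyte apolipoprotein and an extracellular chaperone. It was at 448, 437 and 595 CPM with DMSO and at 279, 241 and 241 CPM with SAG. No library of the groups overlapped, and the log2 fold change was -0.94 ± 0.19 (SE), with an adjusted p of 0.207 in edgeR (unadjusted 4.78e-04) and 4.18e-05 in DESeq2. The range of its adjusted p over all settings and libraries left out was 4.18e-05 to 0.782. PBS libraries held 751, 780, 247 and 217 CPM, FGF2 libraries 730, 849, 79.6 and 112 CPM, and FGF10 libraries 786, 811 and 246 CPM. Within each of these groups *Clu* had high libraries, replicates 1 and 2, and low ones, replicates 3 and 4.

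*Apod* (chr16:31296192-31314808, minus strand) encodes apolipoprotein D, a lipocalin that binds small lipids. It was at 22.2, 68.3 and 181 CPM with DMSO and 62.2, 101 and 30.6 CPM with SAG, and the groups overlapped. It was at 14.5, 61.7, 27.6 and 67.1 CPM with PBS, 10.3, 14.4, 32.3 and 22.3 CPM with FGF2 and 20.1, 28.0 and 26.4 CPM with FGF10. FGF2 against PBS gave -1.11 ± 0.56 (SE) in log2, the largest difference of a member other than *Lpl* and *Lcat* in that comparison, at an edgeR adjusted p of 1.00 (unadjusted 0.0666).

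*Lcat* (chr8:105939551-105943382, minus strand) encodes the enzyme that esterifies cholesterol on secreted particles and was the scarcest member, with 0 counts in 9 of 17 libraries. Its counts were 22, 0 and 0 with DMSO, 0 in all 3 SAG libraries, 34, 0, 15 and 1 with PBS, 95, 50, 21 and 0 with FGF2 and 6, 0 and 0 with FGF10. It was too low to be tested in SAG against DMSO and FGF10 against PBS. The antisense gene *Gm16156* overlaps *Lcat*, and since the strand setting of the counting was not stated, reads of the 2 genes cannot be told apart.

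*Abca1* (chr4:53030787-53159895, minus strand) encodes the transporter that passes cholesterol and phospholipid to apolipoproteins, and it is a classical target of the liver X receptors, which bind as heterodimers with RXR to spaced direct repeats. The 250 bases before its RefSeq start (GRCm38.p6, chr4:53159896-53160145, minus strand) are shown because *Abca1* was lower in each SAG library and the known kind of receptor element lies in this window, with the match to the searched letters in capitals:

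Abca1 promoter: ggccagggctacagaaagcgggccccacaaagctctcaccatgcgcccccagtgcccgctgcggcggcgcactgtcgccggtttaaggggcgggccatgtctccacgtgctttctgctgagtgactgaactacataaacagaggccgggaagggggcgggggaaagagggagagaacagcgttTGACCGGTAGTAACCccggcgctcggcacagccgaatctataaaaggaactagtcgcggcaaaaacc

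The letters TGACCNNNNNTAACC were searched on both strands and matched from 67 to 53 bases before the start. They occur in 16 of 32851 promoter windows (0.0487%). These letters are 1 form of the repeat, the form that lies in *Abca1*, so the match in this gene is not a result. Other forms of the repeat were not searched. The reference table held promoter windows for 6 of the 9 genes, 9 windows in all, and *Abca1* was the 1 gene among them with a match. *Lpl*, *Clu* and *Abcg1* had no window, so their promoters were not searched for either set of letters. The letters GACCACCCA, the consensus bound by the GLI factors of the Hedgehog pathway, occur in 83 of the 32851 windows (0.253%). They occur in 0 of the 9 windows of members, which are too few to be set against that share. A match describes letters in a window and not binding. The part of liver X receptors in the levels of the 9 genes was not tested.

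With DMSO *Abca1* was at 528, 524 and 424 CPM, and with SAG at 254, 305 and 275 CPM. Each SAG library lay below each DMSO library, with a log2 fold change of -0.80 ± 0.18 (SE), an adjusted p of 0.301 in edgeR (unadjusted 9.97e-04) and of 5.37e-05 in DESeq2, within a range of 5.37e-05 to 0.869 over all settings and libraries left out. PBS libraries held 526, 532, 581 and 353 CPM, FGF2 libraries 511, 371, 250 and 287 CPM and FGF10 libraries 486, 468 and 515 CPM. FGF2 libraries were lower on average, by a log2 fold change of -0.49 ± 0.25 (SE) and an edgeR adjusted p of 1.00 (unadjusted 0.0725), and the groups overlapped. The difference was -0.26 within replicates 1 and 2 and -0.81 within replicates 3 and 4. For FGF10 against PBS it was -0.02 ± 0.21 (SE).

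*Abcg1* (chr17:31057675-31117988, plus strand), which passes cholesterol to particles that already carry lipid, was at 14.9, 43.3 and 7.65 CPM with DMSO, 18.1, 2.56 and 26.3 CPM with SAG, 15.4, 30.2, 16.9 and 11.1 CPM with PBS, 44.9, 28.3, 8.14 and 2.23 CPM with FGF2 and 17.9, 29.5 and 29.0 CPM with FGF10. All 5 groups overlapped, and the spread within a group was widest with FGF2. The log2 fold change of *Abcg1* with SAG was -0.46 ± 1.05 (SE), an error too wide to compare with that of *Abca1*.

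*Lrp1* (chr10:127538161-127621148, minus strand), the large endocytic receptor for apolipoprotein E particles, overlapped between each treatment and its vehicle. It ranged from 183 to 272 CPM with DMSO, 190 to 225 with SAG, 226 to 239 with PBS, 180 to 236 with FGF2 and 108 to 260 with FGF10. Its log2 fold change with SAG was -0.02 ± 0.22 (SE, edgeR adjusted p = 1), and with FGF2 against PBS -0.10 ± 0.19 (SE, edgeR adjusted p = 1.00). The antisense gene *Gm16217* lies within *Lrp1*.

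*Vldlr* (chr19:27216484-27254231, plus strand) encodes the VLDL receptor, which binds lipoprotein lipase and apolipoprotein E and also relays reelin signals. It was at 6.10, 10.6 and 1.00 CPM with DMSO and 4.40, 29.9 and 4.22 CPM with SAG, and SAG replicate 2 alone carried the higher mean: without it the log2 fold change turned from 1.15 to -0.42. It was at 12.2, 22.3, 13.8 and 1.10 CPM with PBS, 13.6, 19.5, 26.7 and 24.8 CPM with FGF2 and 5.97, 20.5 and 18.3 CPM with FGF10, all overlapping.

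**Figure D2:**
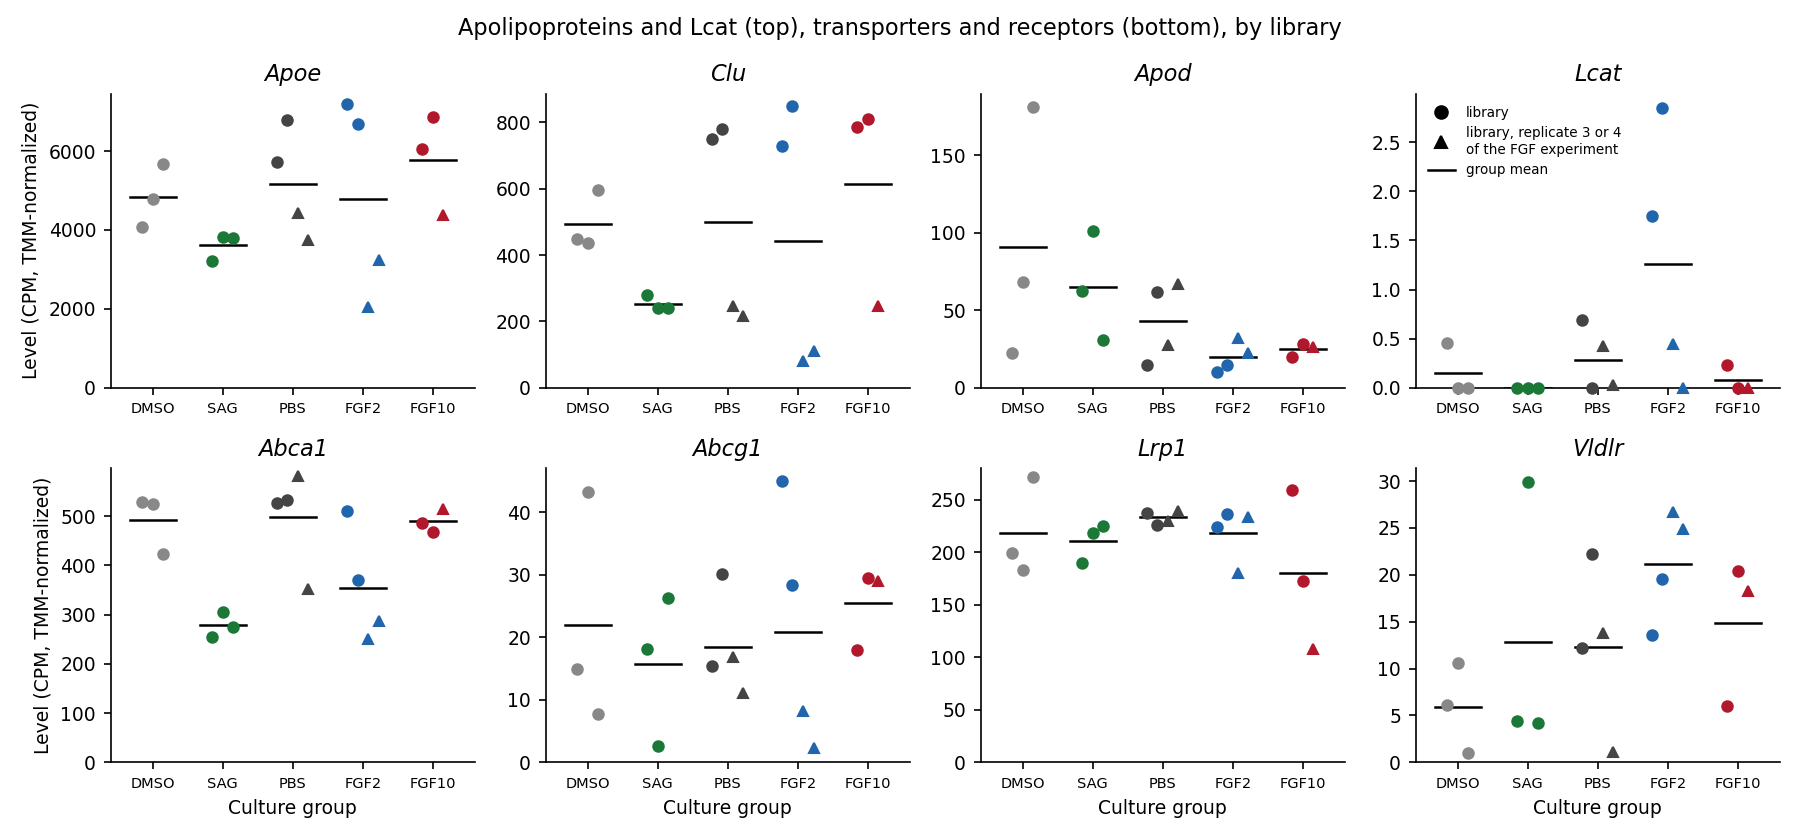
Level in CPM (vertical axes, each from 0) of the other 8 genes in each library of the 5 culture groups. Points are libraries, triangles are replicates 3 and 4 of the FGF experiment, and bars are group means. *Apoe*, *Clu* and *Abca1* lie lower in each SAG library than in each DMSO library, and *Clu* splits into 730 to 849 CPM and 79.6 to 247 CPM by replicate in the FGF experiment.

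The members were then set against all genes. For SAG against DMSO 8 of the 9 genes were tested and 0 had an edgeR adjusted p under 0.05, where 0.0638% of the 12538 genes tested did (8 genes). At an unadjusted p under 0.05 there were 4 members (*Lpl* higher, *Clu*, *Abca1* and *Apoe* lower), of the 8 tested, and 714 genes, which is 5.69% of those tested. DESeq2 called 3 members, *Lpl*, *Clu* and *Abca1*, where it called 2.91% of genes. The groups did not overlap for 1 member that was higher and 3 that were lower, against 6.22% and 7.89% of genes tested. The members were chosen with earlier results of these data in view. Their shares beside those of all genes are therefore a description and not a test of an excess. The median log2 fold change was -0.43 over the 8 members and -0.02 over all genes. The exact permutation test cannot go below 0.1 with 3 against 3, the value it gave for each of these 4 genes.

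The levels of *Clu*, *Abca1* and *Apoe* with SAG moved beside those of other cell type markers. Ependymal markers summed to 246 to 300 CPM with DMSO and 109 to 160 CPM with SAG, neuronal markers to 256 to 515 CPM and 145 to 194 CPM, and astrocyte markers to 6323 to 6749 CPM and 5636 to 6165 CPM, each without overlap. Their part in the differences of the 3 genes was not tested.

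For FGF2 against PBS all 9 genes passed the filter on low counts, and edgeR called 0 members and 0% of the 12744 genes, with 223 genes (1.75%) at an unadjusted p under 0.05. The groups did not overlap for 1 member, *Lpl*, where 1.24% of genes had all FGF2 libraries higher. For FGF10 against PBS 8 genes passed it, with 0 members and 0% of genes called, 305 genes (2.29%) at an unadjusted p under 0.05, and again 1 non-overlapping member, *Lpl*, against 2.87% of genes with all FGF10 libraries higher. In both cases *Lpl* is counted on values that chose it or share its PBS libraries. Between the 2 ligands, all 9 genes passed the filter, 0 members and 0% of genes were called, and 324 genes (2.4%) had an unadjusted p under 0.05. The median log2 fold change of the members was -0.10 for FGF2 against PBS, 0.22 for FGF10 against PBS and -0.27 for FGF2 against FGF10, where those of all genes lay within 0.01 of 0. For *Apoe* the difference between the ligands was -0.27 ± 0.38 (SE) in log2, for *Clu* -0.47 ± 0.70 and for *Abca1* -0.46 ± 0.26, each within 2 SE of 0.

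**Figure D3:**
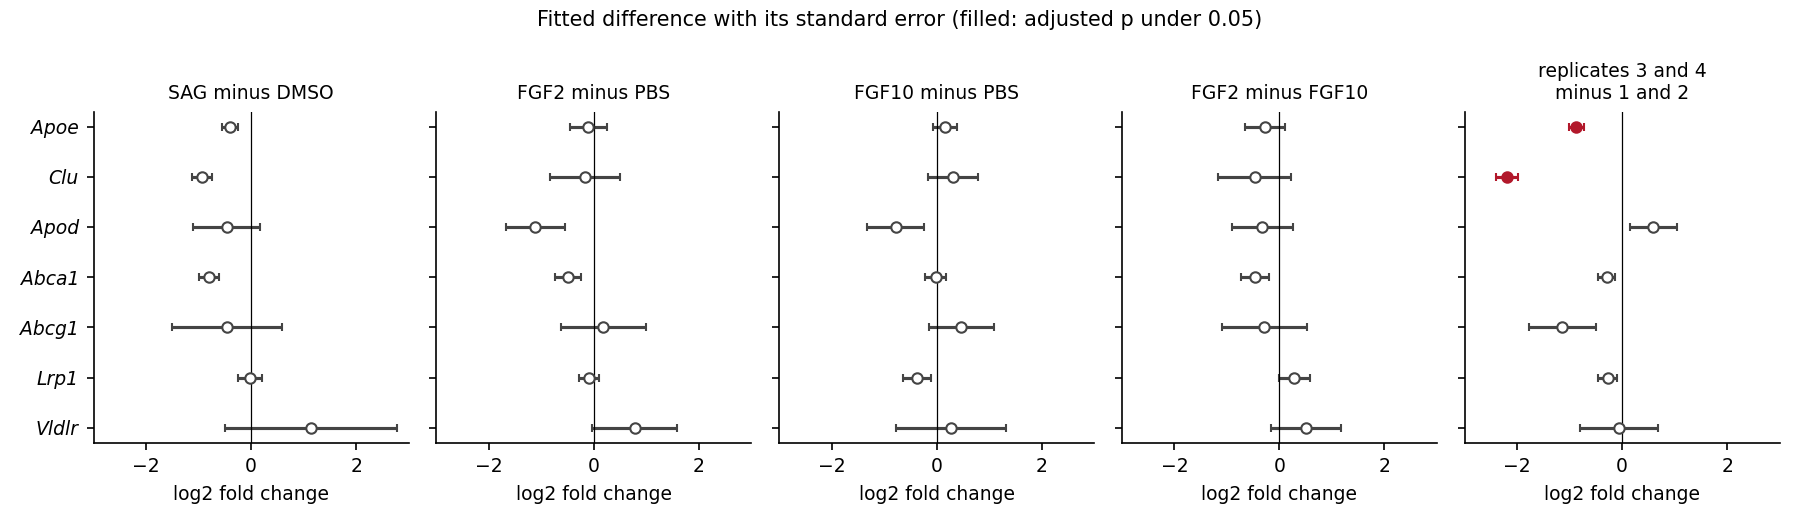
Fitted log2 fold change (horizontal axes) of 7 members in 5 comparisons, with bars for the standard error. Filled points have an edgeR adjusted p under 0.05, which holds for *Apoe* and *Clu* between replicate sets; *Lpl* and *Lcat*, which are at 0 in whole groups or most libraries, are left out.

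*Clu* and *Apoe* differed between replicates of the FGF experiment. Earlier results of these data had shown that replicates 1 and 2 stand apart from 3 and 4 in this experiment, and the labels name no batch, so the source of the split is not given. In a fit with treatment as a term (5 libraries of replicates 3 and 4 against 6 of replicates 1 and 2), 4.38% of 12957 genes had an edgeR adjusted p under 0.05, and 2 of the 9 members did. *Clu* was lower in replicates 3 and 4, at 79.6 to 247 CPM against 730 to 849 CPM, a log2 fold change of -2.19 ± 0.21 (SE, adjusted p = 3.60e-06). *Apoe* was lower as well, at 2057 to 4422 CPM against 5724 to 7202 CPM, with -0.88 ± 0.14 (SE, adjusted p = 8.69e-04). Neither gene's ranges overlapped, and both kept an adjusted p under 0.05 in all 4 other settings and without any 1 of the 11 libraries. The sets were chosen on these same data, so the p-values describe the split and are not an independent test. The refits reuse the same sets.

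The other members did not pass. *Lpl* had -0.75 ± 1.41 (SE, adjusted p = 0.932), *Abca1* -0.29 ± 0.16 (adjusted p = 0.470), *Abcg1* -1.14 ± 0.64 (adjusted p = 0.481) and *Lrp1* -0.27 ± 0.18 (adjusted p = 0.592). Oligodendrocyte lineage markers were at 3714 to 4520 CPM in replicates 3 and 4 against 2196 to 2497 CPM in replicates 1 and 2, ependymal markers at 88.4 to 232 against 367 to 638 CPM, neuronal markers at 130 to 215 against 374 to 494 CPM and astrocyte markers at 4986 to 5423 against 6732 to 7681 CPM, each without overlap. Their part in the difference of *Clu* and *Apoe* was not tested.

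Within replicates 1 and 2 *Clu* differed between FGF2 and PBS by a log2 fold change of 0.05 and *Apoe* by 0.15, and within replicates 3 and 4 by -1.28 and -0.63. The test of that difference, added after the values were seen, gave -1.33 ± 0.30 (SE, unadjusted p = 8.17e-04) for *Clu* and -0.79 ± 0.28 (unadjusted p = 0.0157) for *Apoe*, and neither passed the adjustment in edgeR (adjusted p = 0.612 and 0.997), where 0.0157% of genes did. The 2 FGF2 libraries of replicates 3 and 4 held the lowest *Clu* of all 17 libraries, 79.6 and 112 CPM.

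Beyond the 9 genes, 101 other genes of lipoprotein and lipid handling were followed, and 74 to 76 of them passed the filter on low counts in each comparison of treatments. With SAG 0 were called, 5 were higher and 0 lower at an unadjusted p under 0.05, against 5.69% of all genes tested in either direction. By list, that was 2 of 15 receptors and adaptors, 1 of 17 transporters and transfer proteins, 2 of 16 genes of fatty acid uptake and lipid droplets, and 0 of the 11 nuclear receptors, 14 lipases and lipase partners and 1 apolipoprotein tested. *Acsbg1*, an acyl-CoA synthetase of astrocytes, was at 58.0 to 97.0 CPM with DMSO and 187 to 255 CPM with SAG (log2 fold change 1.46 ± 0.27 SE, edgeR adjusted p = 0.106). *Fabp7*, the brain fatty acid binding protein of radial glia and astrocytes, was at 1375 to 1609 CPM and 2063 to 2509 CPM (0.60 ± 0.14, adjusted p = 0.369). The lower genes with the smallest p were *Npc1*, the lysosomal cholesterol exporter (-0.71 ± 0.35), and *Lrp6*, a Wnt co-receptor (-1.01 ± 0.55).

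With FGF2 against PBS 0 of 74 were called, and 1 was lower at an unadjusted p under 0.05, against 1.75% of all genes in either direction. This was *Sdc4*, a heparan sulphate proteoglycan, at 58.1 to 110 CPM with PBS and 33.1 to 61.6 CPM with FGF2 (-0.84 ± 0.32 SE, edgeR adjusted p = 1.00). *Lrp2*, the receptor megalin, was at 0.997 to 17.5 CPM with FGF2 and 17.9 to 39.0 CPM with PBS (-1.94 ± 0.93, adjusted p = 1.00), and stood at 23.1 to 34.6 CPM with FGF10. The higher genes with the smallest p were *Hilpda*, a lipid droplet protein (1.03 ± 0.76), and *Nr1h2*, liver X receptor β (0.72 ± 0.50). With FGF10 against PBS 0 of 76 were called, with *Fabp5* at -0.71 ± 0.30 and *Rxra* at -1.04 ± 0.51 lower, and *Snx17*, a sorting adaptor for LRP1, at 0.39 ± 0.26 and *Cidea*, with counts in few libraries, at 4.09 ± 3.03 higher. Between FGF2 and FGF10 0 of 75 were called, with *Abca3* at 1.75 ± 0.63, *Fabp5* at 0.64 ± 0.38, *Abca2* at -0.88 ± 0.39 and *Lrp2* at -2.02 ± 0.99.

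Between the replicate sets 6 of 75 of these genes were called, 3 in each direction, against the 4.38% of all genes. *Fabp7* was higher in replicates 3 and 4, at 2713 to 4852 CPM against 1529 to 1778 CPM (1.05 ± 0.11 SE, edgeR adjusted p = 1.02e-05). *Acsbg1* was higher too, at 208 to 403 CPM against 58.8 to 140 CPM (1.65 ± 0.20, adjusted p = 4.25e-05), and so was *Scarb1*, the HDL receptor SR-BI, at 98.8 to 148 CPM against 21.3 to 78.9 CPM (1.15 ± 0.29, adjusted p = 0.0298). With SAG *Scarb1* was at 62.8 to 101 CPM against 30.9 to 49.6 CPM with DMSO (1.07 ± 0.36, adjusted p = 0.582).

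Lower in replicates 3 and 4 were *Angptl4*, at 0 to 2.43 CPM against 13.7 to 50.7 CPM (adjusted p = 0.0353), *Cpt1a*, the gate of mitochondrial fatty acid import, at 2.40 to 54.0 CPM against 86.3 to 179 CPM (-1.72 ± 0.45, adjusted p = 0.0349), and *Abca7*, a phospholipid transporter, which was at 0 in all 5 libraries of replicates 3 and 4 and at 0 to 30.4 CPM in replicates 1 and 2 (adjusted p = 0.0180). The 2 comparisons, SAG against DMSO and replicates 3 and 4 against 1 and 2, share no library. Of the 2 members and 6 other genes called between the replicate sets, edgeR called 0 with SAG. The SAG values of *Clu*, *Apoe*, *Fabp7*, *Acsbg1* and *Scarb1* are given above. Their signs were not set against those of all genes called between the sets, so nothing is drawn from them. The other 3 had log2 fold changes with SAG of -0.0066 ± 0.36 (*Cpt1a*), -1.26 ± 1.97 (*Angptl4*) and -1.42 ± 2.84 (*Abca7*), each within its SE of 0. *Abca1*, lower in each SAG library, was not called between the sets.

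**Figure D4:**
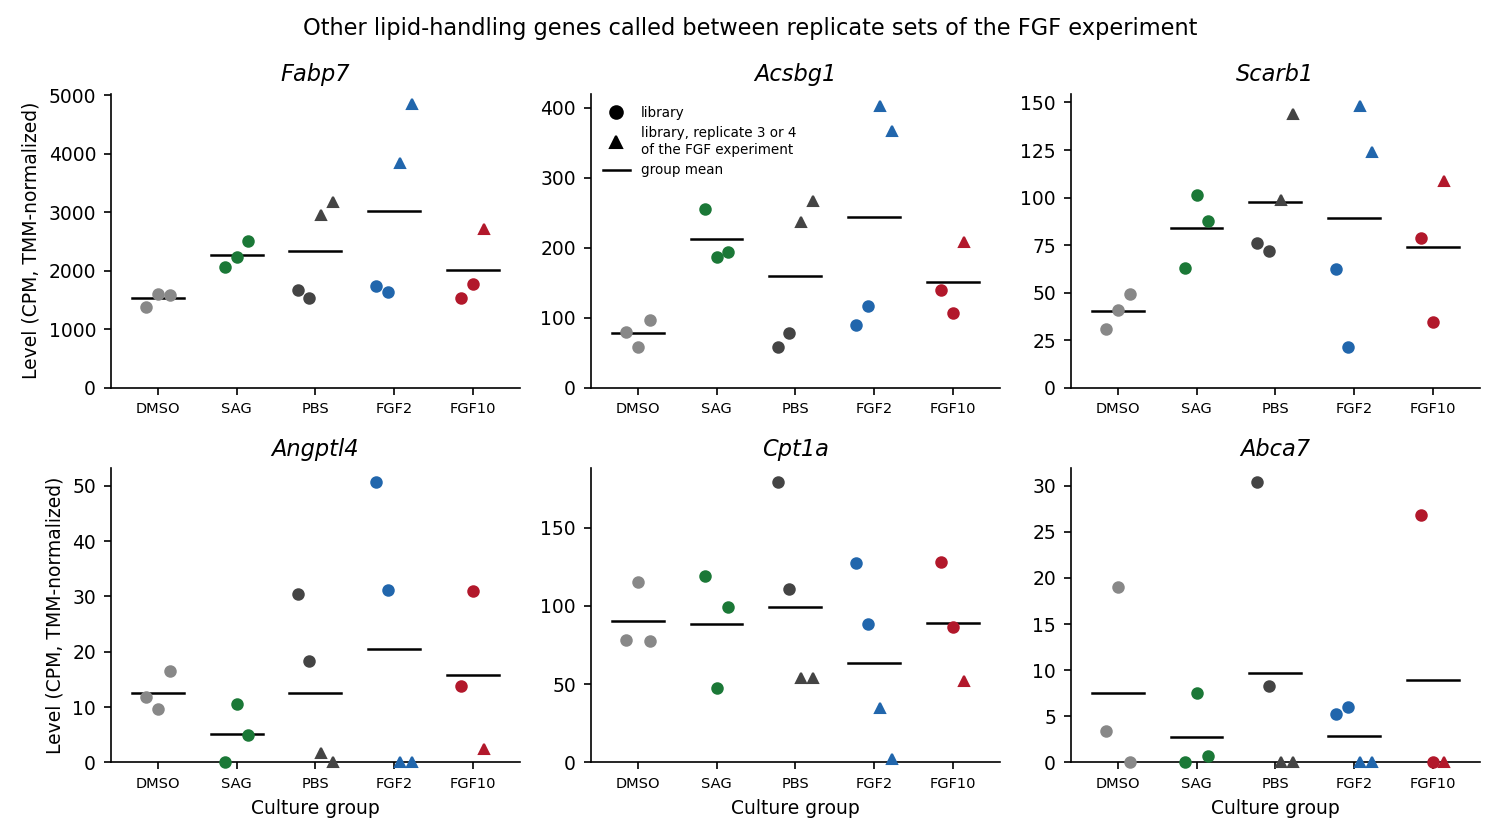
Level in CPM (vertical axes, each from 0) of the 6 other lipid-handling genes called between replicate sets, in each library of the 5 culture groups. Points are libraries, triangles are replicates 3 and 4 of the FGF experiment, and bars are group means. *Fabp7*, *Acsbg1* and *Scarb1* lie higher in the triangles than in the PBS, FGF2 and FGF10 circles, and *Angptl4* and *Cpt1a* lower.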

How the data were processed

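Cultured astrocyte RNA was made into 3′ tag libraries (QuantSeq 3′ mRNA-Seq V2 FWD, with BC1 transcripts removed). Per the labels and the study's methods, the authors aligned reads with STAR to GRCm38 and deposited raw counts per gene in 1 table. The annotation, the strand setting and any removal of PCR duplicates are not given in the sources used here, so counting intervals cover counting error only. The SAG columns carry the name of the Hedgehog ligand. The table lists 56805 rows; 114 spike-in rows were left out. The labels list 4 FGF2 samples, more than the study's text counts, and all were used. The members and gene lists were chosen with earlier results of these data known. Named pathway genes are those called in a comparison, or the 2 higher and 2 lower with the smallest p, plus partners of lipoprotein lipase and the 5 genes most correlated with *Lpl*.

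Each comparison was fitted in R 4.3.3 with edgeR 4.0.16 (filterByExpr, minimum count 10 and minimum total 15, TMM, quasi-likelihood test, Benjamini-Hochberg adjustment over all genes tested). DESeq2 1.42.0 was an alternative, run on the unfiltered table. A gene was called at an adjusted p under 0.05, and counts of genes past the study's threshold required an adjusted p below 0.01 together with a log2 fold change above 1 in size. Coordinates are from GENCODE M21 and the promoter from RefSeq. Replicates of a group differed by more than counting noise. The edgeR and DESeq2 p-values set a group difference against the modelled spread between these samples. Whether groups shared a preparation of cells was not stated, so the source of that spread is not known. The level of 1 gene is not reported here.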

Additional observations from a re-analysis of the deposited data

How the results depend on the processing

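The 11 counts of genes or members and the member log2 fold changes were recomputed under each alternative. Of 625 recomputed member log2 fold changes, 579 were counted as unchanged. Another 9 were counted as moved with the same sign, all of *Lpl* with FGF2 or FGF10 against PBS, where no call was made. In 5 a member with SAG was called that the main fit did not call. The remaining 32 changed sign, all of them differences that were not called. DESeq2 moved counts most: genes past the study's threshold were 163 for SAG against DMSO (4 in edgeR), 78 for FGF2 and 65 for FGF10 against PBS, 63 for FGF2 against FGF10 (0 each in edgeR) and 1757 between replicate sets (175 in edgeR). It called 3 members with SAG and 1 each with FGF2 and FGF10 against PBS, both times *Lpl*, counted on values that chose it or share its PBS libraries, so these 2 counts support nothing. Without a filter the counts were 39 for SAG, 2 for FGF2 against FGF10 and 339 between sets, and with a mean of at least 10 counts 21 for SAG and 353 between sets; both settings called 1 member with SAG, *Clu*. At an adjusted p under 0.05 with any fold change the counts were 8 for SAG and 568 between sets. Leaving out 1 library gave 0 to 1 genes for SAG, each of the 6 libraries lowering the count. With a limit of 0 counts 0 genes showed the *Lpl* pattern, an alternative added after seeing the data.

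Within replicates 1 and 2, FGF2 against PBS gave 0.15 for *Apoe*, 0.047 for *Clu* and -0.052 for *Vldlr*, and FGF10 against PBS -0.39 for *Vldlr*. Within replicates 3 and 4, FGF2 against PBS gave -1.45 for *Abcg1* and -0.064 for *Lcat*. With the replicate set as a term, FGF2 gave -0.17 for *Abcg1* and FGF10 -0.013 for *Clu*. Same-numbered libraries of 2 groups deviated together with correlations of -0.0157 to 0.115, not all of them over 0.1, so same-numbered libraries were not taken as pairs, although replicates 1 and 2 stood apart from 3 and 4 in the FGF experiment. The replicate block gave 6 genes for SAG and 0 for the other treatment comparisons, called no member, and turned *Abcg1* with FGF2 to -0.50 and *Vldlr* with FGF10 to -0.24. By this measure 1 of 3 SAG, 2 of 4 FGF2 and 2 of 3 FGF10 libraries were closest to the vehicle library of their own number.

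Without 1 library, log2 fold changes with SAG ran from -1.07 to 0.50 for *Abcg1*, -0.14 to 0.16 for *Lrp1*, -0.42 to 1.88 for *Vldlr* and -0.94 to 0.53 for *Apod*. With FGF2 against PBS they ran from -0.37 to 0.14 for *Apoe*, -0.70 to 0.17 for *Clu* and -0.51 to 0.55 for *Abcg1*. With FGF10 against PBS they ran from -0.16 to 0.052 for *Abca1* and -0.12 to 0.72 for *Vldlr*, between the ligands from -0.98 to 0.087 for *Abcg1*, and between sets from -0.29 to 0.33 for *Vldlr*. Of genes at 5 to 10 CPM elsewhere, 7.58% to 33.9% were at 0 in a given library, not in the order of depth (15.2% in the shallowest, FGF2 replicate 2, 17.5% in the deepest, SAG replicate 2).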
